A study of Mus musculus with 5 samples.

Results

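The genes described here act in homologous recombination and in the Fanconi anemia pathway of DNA repair. The set of 39 genes was written by name, and a member was kept where the array holds a probe set that the platform annotation assigns to its symbol alone. Of the 39, 37 were measured, 1 of them (H2afx) under its newer symbol H2ax, out of 19938 named genes on the array. Xrcc2 and Rbbp8 had no such probe set and were not analysed here. Bard1 was read by 3 probe sets and Nbn by 2, and the brightest of them on average was taken for each.

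Homologous recombination repairs a double-strand break by copying the intact sister chromatid, and it acts after DNA has been replicated. The MRE11, RAD50 and NBN proteins bind the break, nucleases resect its ends, and BRCA1, PALB2 and BRCA2 prepare the single-stranded DNA for the search for a matching sequence. The Fanconi pathway unhooks crosslinks between DNA strands that block a replication fork, through a core ubiquitin ligase that modifies the FANCD2 and FANCI pair. The kinases ATM and ATR signal the damage to the checkpoint kinases CHEK2 and CHEK1. Blood-forming progenitors depend on these pathways, and marrow failure is the main feature of Fanconi anemia.

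RNA of 5 cell populations sorted from the bone marrow of untreated wild-type C57Bl/6 mice was measured on expression arrays, with 1 array per population. All 5 sorts were lineage-negative and CD115+. The monocyte-dendritic cell progenitor (MDP) was CD117+ CD135+, the common dendritic cell progenitor (CDP) was CD117int CD135+, and the common monocyte progenitor (cMoP) was CD117+ CD135-. Classical monocytes were Ly6C+ TremL4- and nonclassical monocytes were Ly6C- TremL4+. Ages, sexes and the number of animals behind each array are not stated. With 1 array per population no difference has a replicate check, and no p-value, standard deviation or interval can be given. A bulk array also cannot tell apart fewer cycling cells from less of a transcript in each cell.

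Of 6 sort genes written, 4 were measured, and these went with the gates. Ly6c1 and Ly6c2 were not among them, so the Ly6C gate was not checked. Kit, which encodes CD117, was at 10.11 in MDP and 5.61 in nonclassical monocytes, and Treml4 was at 11.78 in nonclassical monocytes and at 6.18 or less elsewhere. Values are log2 intensities as deposited, and 1 log2 unit is a 2-fold difference. A gene was called different where the difference was at least 1 log2 unit and the higher array reached a floor of 6.27, the median of all named genes' values. Between 9831 and 10167 named genes reached the floor on each array. Where the lower value lay under the floor, the floor stood in for it and the fold carries the words "at least". Levels of different genes were read by different probes and are not ranked against each other. The probe set means of the members ran from 6.21 for Fancf to 10.28 for H2ax.

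All 37 members reached the floor on some array. Many were lower in nonclassical monocytes than on the other 4 arrays, and others were nearly flat over all 5 arrays. The number of members at or above the floor was 35 in MDP, 36 in CDP, 37 in cMoP, 36 in classical monocytes and 21 in nonclassical monocytes. Nonclassical monocytes were compared with classical monocytes to ask what differs between the subsets. Of the 36 members past the floor in that comparison, 16 were lower in nonclassical monocytes and 0 were higher. Of all 10503 named genes past the floor, 9.82% were lower and 3.55% higher. Over the other 4 arrays the values of the 16 lower members spanned 0.20 to 1.39 log2 units, with a median span of 0.68. The median difference was -0.97 over the 36 members and -0.96 over all 37 measured, against -0.09 for all named genes past the floor. By 2 log2 units or more, 6 members were lower, against 2.98% of all genes. The nonclassical value was the lowest of the 5 arrays, without a tie, in 31 of the 37 members, against 37.4% of all genes past the floor. In 14 members it lay at least 1 log2 unit under every other array, against 6.50% of all genes. Of the 16 lower members, 11 had a nonclassical value under the floor, so the size of their difference rests on dim signal. For Palb2, Brca2 and Fancd2 the call does too, since with the floor in place their folds are at least 1.12, 1.61 and 1.99. Brca1, Rad54b and Chek1 likewise do not reach 2 log2 units with the floor in place (at least 2.61-fold, 2.57-fold and 2.70-fold).

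**Figure D1:**
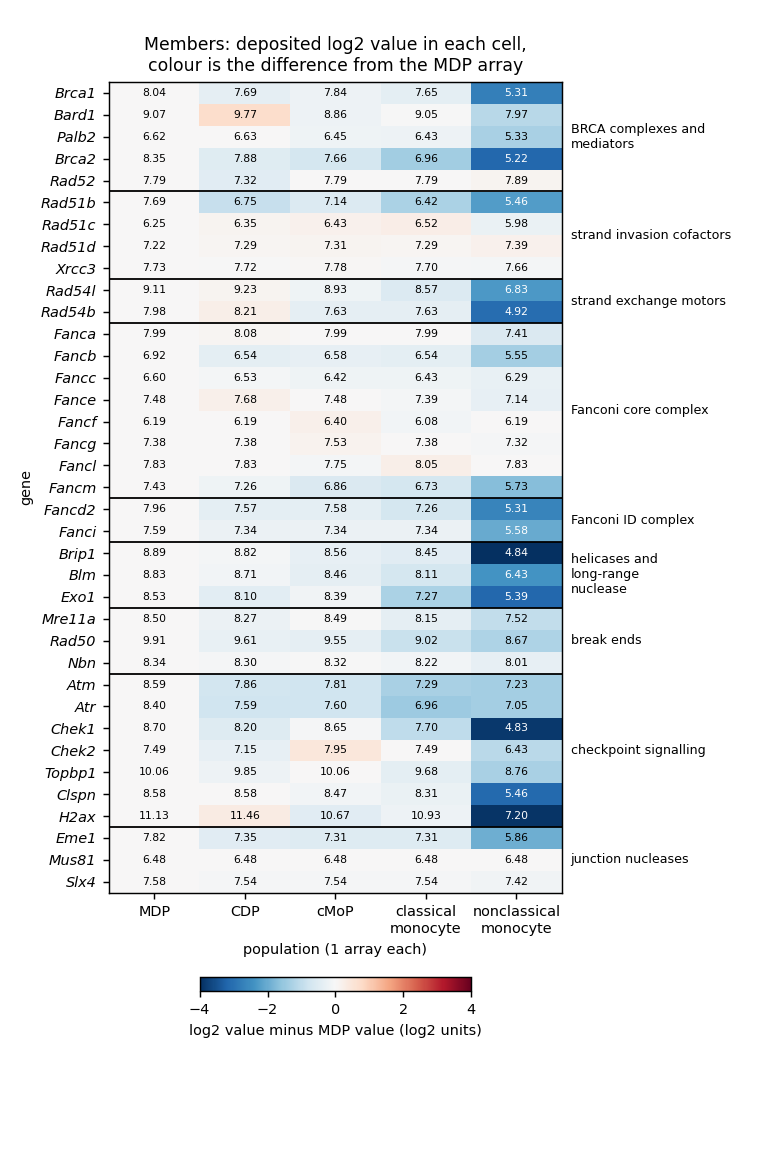
Deposited log2 values of the 37 measured members (rows, grouped by role) on the 5 arrays (columns, 1 array each), coloured by the difference from the MDP array in log2 units. The dark cells stand in the nonclassical column, where 16 members were at least 1 log2 unit under the classical monocyte value, while Rad51c, Rad51d, Xrcc3 and most of the Fanconi core stay pale in all columns.

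Among the BRCA complex genes and Rad52, 4 of 5 were lower in nonclassical than in classical monocytes, against 9.82% of all genes. Brca1, the ubiquitin ligase subunit that promotes end resection and recombination, had values of 8.04 in MDP, 7.69 in CDP, 7.84 in cMoP, 7.65 in classical monocytes and 5.31 in nonclassical monocytes. The first 4 arrays thus lay within 0.39 of each other, and the nonclassical array was at least 2.61-fold below the classical one (-2.34). Brca2, a mediator of recombination that binds single-stranded DNA, had values of 8.35, 7.88, 7.66, 6.96 and 5.22 in the same order of populations. It was lower at each step along MDP, cMoP, classical and nonclassical monocyte, with a difference of -3.13 between the ends (at least 4.23-fold). Palb2, the bridge between BRCA1 and BRCA2, stayed between 6.43 and 6.63 on the first 4 arrays and was at 5.33 in nonclassical monocytes. It starts close to the floor, so its fold is at least 1.12.

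Bard1, the partner of BRCA1 in the ubiquitin ligase, was at 9.07 in MDP, 9.77 in CDP, 8.86 in cMoP, 9.05 in classical and 7.97 in nonclassical monocytes. It was among 8 of 37 members with their highest value in CDP, without a tie, against 12.7% of all genes past the floor. The 2.12-fold difference of Bard1 between the monocytes (-1.08) depends on the probe set and the normalization. After quantile normalization it was -0.91, inside the threshold. The other Bard1 probe sets gave -0.96 and -0.70, so the mean of the 3 does not reach the threshold. Rad52, which anneals single strands of DNA, went another way, with 7.79 in MDP, cMoP and classical monocytes, 7.32 in CDP and 7.89 in nonclassical monocytes.

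Rad51b, Rad51c, Rad51d and Xrcc3 encode related proteins that form small complexes and assist strand invasion. Of these 4, 0 was called between the monocytes, which for so few genes lies near the 9.82% of all genes lower. Rad51d lay between 7.22 and 7.39 and Xrcc3 between 7.66 and 7.78 over all 5 arrays. Rad51c was dim throughout, between 5.98 and 6.52. Rad51b differed from its relatives, with 7.69 in MDP, 6.75 in CDP, 7.14 in cMoP, 6.42 in classical and 5.46 in nonclassical monocytes. Its difference between the monocytes was just inside the threshold (-0.96), while that between nonclassical monocytes and MDP was -2.23 (at least 2.68-fold).

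Rad54l and Rad54b encode DNA translocases that act in strand exchange. Both were lower in nonclassical than in classical monocytes, against 9.82% of all genes. Rad54l had values of 9.11, 9.23, 8.93, 8.57 and 6.83 in MDP, CDP, cMoP, classical and nonclassical monocytes. The difference between the monocytes was 3.34-fold (-1.74), with both values above the floor. Rad54b had 7.98, 8.21, 7.63, 7.63 and 4.92 in the same order, at least 2.57-fold lower in nonclassical than in classical monocytes (-2.71).

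In the Fanconi core complex 0 of the 7 genes past the floor was called between the monocytes. Of all genes 9.82% were lower, so for so few genes this count lies near the background. Over all 8 measured core genes the median difference was -0.24, with a range from -0.997 to 0.11. Fancg ran from 7.32 to 7.53, Fance from 7.14 to 7.68, Fancc from 6.29 to 6.60 and Fancl, the ubiquitin ligase subunit, from 7.75 to 8.05. Fanca was at 7.99 in MDP, cMoP and classical monocytes, 8.08 in CDP and 7.41 in nonclassical monocytes. Fancf was dim, between 6.08 and 6.40, and reached the floor only in cMoP. The other core genes, Fancb and the translocase gene Fancm, lay just inside the threshold. Fancm had values of 7.43, 7.26, 6.86, 6.73 and 5.73, a difference of -0.997 between the monocytes. Fancb was at 6.92 in MDP and 5.55 in nonclassical monocytes, with -0.98 between the monocytes. Both passed the threshold once the arrays were centred (-1.03 for Fancm and -1.01 for Fancb) or quantile normalized (-1.09 and -1.07). They were also the 2 core genes called lower against MDP.

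Both genes of the modified pair were lower in nonclassical than in classical monocytes, against 9.82% of all genes. Fancd2 had values of 7.96 in MDP, 7.57 in CDP, 7.58 in cMoP, 7.26 in classical and 5.31 in nonclassical monocytes, at least 1.99-fold lower in the last (-1.95). Fanci was at 7.59 in MDP, at 7.34 in CDP, cMoP and classical monocytes alike, and at 5.58 in nonclassical monocytes, at least 2.11-fold lower (-1.76). All 3 genes for helicases and long-range resection were lower too, against the same 9.82%, though groups this small hold few genes. Brip1, a helicase that binds BRCA1 and is also known as FANCJ, had values of 8.89, 8.82, 8.56, 8.45 and 4.84. Its first 4 arrays lay within 0.44 of each other, and the nonclassical array was at least 4.53-fold lower than the classical one (-3.60). Blm, the helicase that dissolves recombination intermediates, had 8.83, 8.71, 8.46, 8.11 and 6.43, which is 3.20-fold lower at the last step (-1.68). Exo1, the exonuclease of long-range resection, had 8.53, 8.10, 8.39, 7.27 and 5.39. It was the only member called between classical monocytes and cMoP (-1.11), and was at least 2.01-fold lower again in nonclassical monocytes (-1.88).

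The genes whose products bind break ends stayed within the threshold between the monocytes. Nbn lay between 8.01 and 8.34 over the 5 arrays. Its dimmer probe set gave 0.17 between the monocytes where the brighter gave -0.21. Mre11a was between 8.15 and 8.50 on the first 4 arrays and at 7.52 in nonclassical monocytes (-0.63). Rad50 had values of 9.91, 9.61, 9.55, 9.02 and 8.67, so that most of its difference from MDP was already present in classical monocytes (-0.89).

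**Figure D2:**
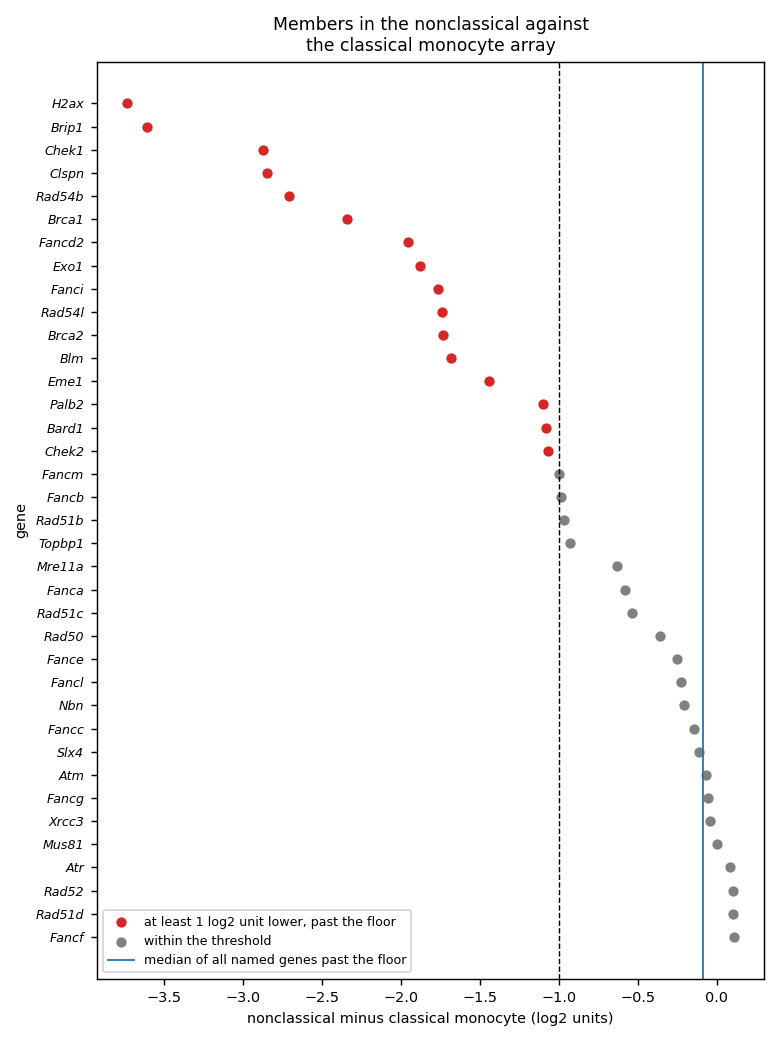
Difference between the nonclassical and the classical monocyte array (log2 units, horizontal axis) for each of the 37 members, ordered by size. The 16 red members lie at or beyond -1 and run from -1.06 for Chek2 to -3.73 for H2ax, the 21 grey ones lie between -0.997 and 0.11, and the blue line marks the median of all named genes past the floor (-0.09).

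Among the checkpoint genes 4 of 7 were lower in nonclassical than in classical monocytes, against 9.82% of all genes. H2ax, with the widest difference of the members, encodes the histone variant that is phosphorylated around breaks, and also a general part of chromatin. It had values of 11.13 in MDP, 11.46 in CDP, 10.67 in cMoP, 10.93 in classical and 7.20 in nonclassical monocytes, a 13.3-fold difference between the monocytes (-3.73). Chek1, the kinase that restrains the cell cycle when forks stall, had 8.70, 8.20, 8.65, 7.70 and 4.83, at least 2.70-fold lower at the last step (-2.87). Clspn, the adaptor through which ATR activates CHEK1, had 8.58, 8.58, 8.47, 8.31 and 5.46, at least 4.11-fold lower (-2.84). Chek2 was at 7.49 in MDP and classical monocytes, 7.15 in CDP, 7.945 in cMoP and 6.43 in nonclassical monocytes, a 2.09-fold difference between the monocytes (-1.06). Topbp1, an activator of ATR, had 10.06, 9.85, 10.06, 9.68 and 8.76, just inside the threshold (-0.93).

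Atm and Atr, the kinases at the head of the response, were lower early and not at the last step. Atm had values of 8.59 in MDP, 7.86 in CDP, 7.81 in cMoP, 7.29 in classical and 7.23 in nonclassical monocytes. Atr had 8.40, 7.59, 7.60, 6.96 and 7.05 in the same order. Both were highest in MDP, by 0.73 and 0.81 over the next array, the widest such gaps among the members. Their differences between classical monocytes and MDP were -1.29 and -1.44, and those between nonclassical and classical monocytes were -0.07 and 0.08. MDP was the highest array, without a tie, in 19 of 37 members, against 18.1% of all genes past the floor.

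The junction nucleases behaved in different ways. Eme1 had values of 7.82 in MDP, 7.35 in CDP, 7.31 in cMoP, 7.31 in classical and 5.86 in nonclassical monocytes, at least 2.05-fold lower at the last step (-1.44). Its partner Mus81 was listed at 6.48 on all 5 arrays, equal to the last digit. Slx4, the scaffold that holds these nucleases, ran from 7.42 to 7.58.

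**Figure D3:**
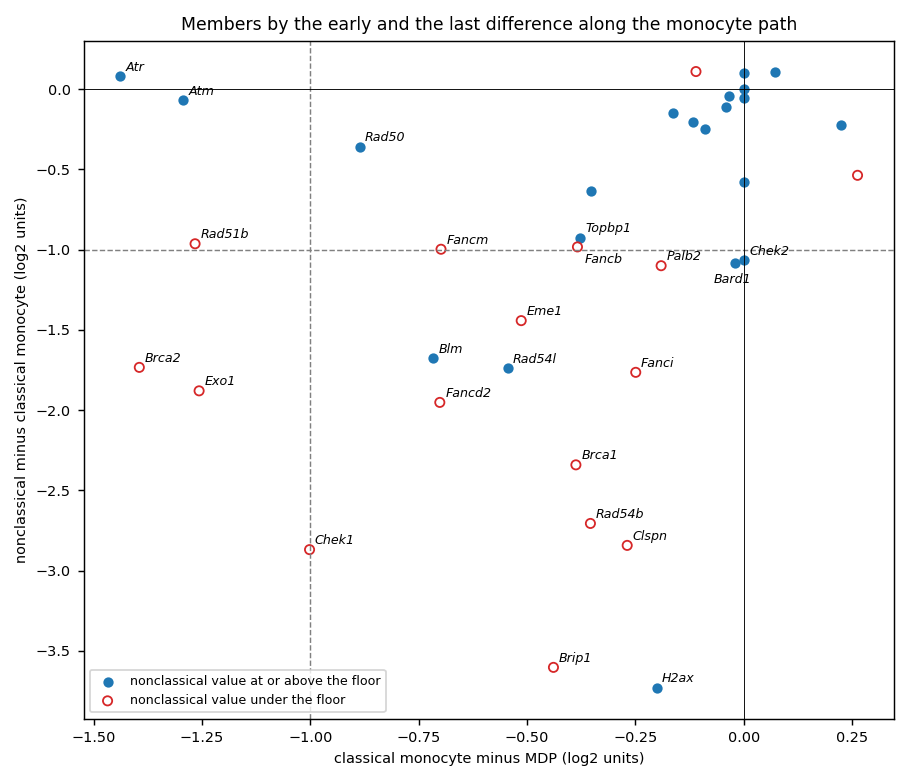
Each point is a member, placed by its difference between classical monocyte and MDP (horizontal axis, log2 units) and between nonclassical and classical monocyte (vertical axis, log2 units), with dashed lines at -1 and open red symbols for a nonclassical value under the floor. Atm and Atr sit at the upper left with -1.29 and -1.44 on the horizontal axis and -0.07 and 0.08 on the vertical axis, H2ax and Brip1 sit at the bottom with -3.73 and -3.60 on the vertical axis, and Brca2, Exo1 and Chek1 are past both lines. The classical monocyte array enters both axes.

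Set end to end, 23 of the 35 members past the floor were lower in nonclassical monocytes than in MDP, against 16.3% of all genes, and 0 were higher, against 9.01%. With values under the floor set to the floor, at least 50% of the log2 difference lay between classical and nonclassical monocytes for 14 of these 23, with a median of 66.9%. The other 9 were Atm, Atr, Rad50, Rad51b, Brca2, Exo1, Palb2, Fancb and Fancm. With the dim values as deposited the count was 19, so for 5 of the members it rests on nonclassical signal under the floor. The 23 were taken for a low nonclassical value, which favours a large last step. The same share was not computed over all genes, so these counts have no background. Classical monocytes against MDP gave 6 lower members of 36, against 5.74% of all genes. They were Atr, Brca2, Atm, Rad51b, Exo1 and Chek1. These comparisons share arrays with those above, so their counts do not stand apart from each other.

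Among the progenitors no member was called, and few of all genes were, so for a list of this size the counts lie near the background. CDP was set against MDP to ask what goes with the dendritic branch, and 0 of 36 members past the floor was called, against 2.21% of all genes. The median difference was -0.09 and the widest were those of Rad51b (-0.94) and Atr (-0.81), while Bard1 was higher by 0.70. The comparison of cMoP with MDP, for the monocyte branch, had 0 of 37 called, against 2.83% of all genes, with a median of -0.17 and Atr again widest (-0.81). The comparison of cMoP with CDP had 0 of 37 called, against 5.43%, with a median of 0.00 and Bard1 widest (-0.91). Classical monocytes against cMoP gave 1 of 37 lower, Exo1, against 4.40% of all genes, and 0 higher, against 7.01%. Chek1 was near the threshold there (-0.95). No member had every progenitor array at least 1 log2 unit above both monocyte arrays, against 0.787% of all genes. Exo1 came closest, with a gap of 0.83.

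The other genes of the pathway, taken from a written list of 52, had 49 measured members. Of the 46 past the floor, 13 were lower in nonclassical than in classical monocytes and 0 higher, with a median of -0.54. Of all genes, 9.82% were lower and 3.55% higher. Fignl1, an ATPase that acts in recombination, had values of 9.46, 9.34, 9.35, 8.84 and 5.0 in MDP, CDP, cMoP, classical and nonclassical monocytes, at least 5.95-fold lower at the last step (-3.84). Tipin, of the fork protection complex, had 10.15, 9.93, 10.34, 9.43 and 7.33, a 4.28-fold difference (-2.10). Mcm8, a helicase of recombination, was lower in smaller steps, with 7.38, 7.0, 7.24, 6.30 and 5.39. Dna2, a nuclease of end resection, went the other way, with 8.18, 8.71, 8.55, 9.87 and 9.31, and was higher in classical monocytes than in cMoP (1.32).

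Other repair pathways were read from lists as well. End joining, the repair of breaks without a template, had 2 of 12 genes lower in nonclassical monocytes, Xrcc6 (-1.08) and Polq (-1.15), and a median of -0.33. Nucleotide excision repair had 0 of 17 and a median of -0.07, and mismatch repair 0 of 5 and a median of -0.65. Base excision repair had 4 of 15 lower, among them Neil3 (-3.85) and Fen1 (-1.43), with a median of -0.25. Of all genes, 9.82% were lower in nonclassical than in classical monocytes, and lists this short can hold few calls. None of these lists had a gene called higher in that comparison, and no test was made of the members against them.

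Genes of cell division moved with the members. Of the 27 replication fork genes measured, all past the floor, 20 were lower in nonclassical than in classical monocytes, with a median of -1.98. Of 21 mitosis genes 21 were lower, with a median of -4.32, against 9.82% of all genes lower. The median level of the mitosis genes was 9.90 in MDP, 9.97 in CDP, 9.73 in cMoP, 9.86 in classical and 5.62 in nonclassical monocytes. Between classical monocytes and cMoP, where 1 member was called, the mitosis genes had a median of 0.10 and the replication fork genes -0.59. The part of cell division in the members' differences was not tested. Neutrophil markers also differed between the monocyte arrays. Of 11 measured, 5 reached the floor in classical and 2 in nonclassical monocytes, and their summed linear intensity was 4428 in classical and 541 in nonclassical monocytes, against 576 to 1152 in the progenitors. Mmp8 (11.28 against 4.32) and Lcn2 (10.45 against 5.91) made up most of that, while Ly6g, Ltf and Retnlg were under the floor on all 5 arrays. The part of these genes in the result was not tested. The summed intensity of B cell markers was 688 to 1159, of erythroid markers 502 to 1408 and of T and NK cell markers 441 to 549 over the arrays.

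**Figure D4:**
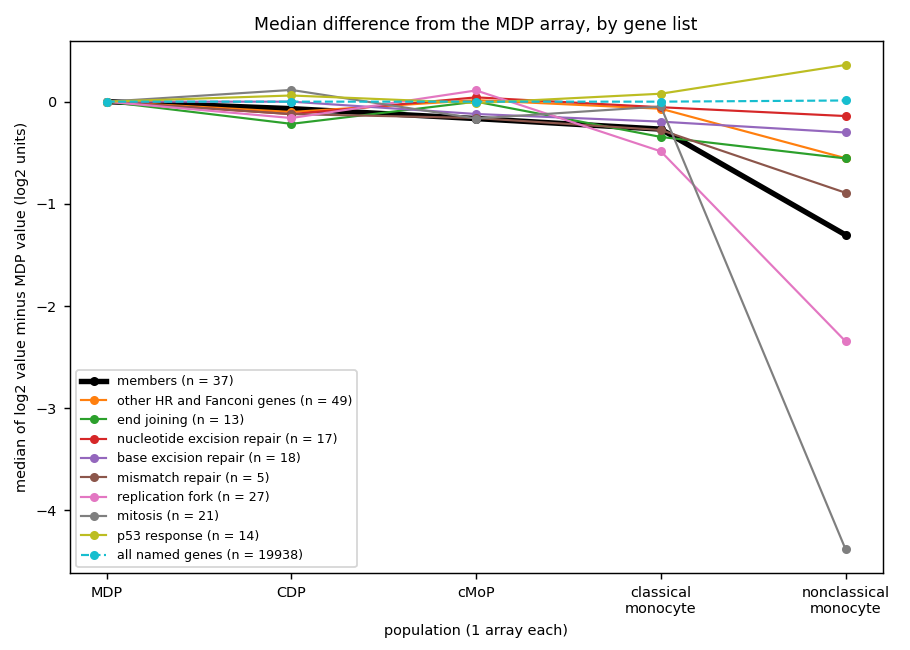
Median over each gene list of the log2 value minus the MDP value (vertical axis, log2 units, all measured genes of a list) on the 5 arrays (horizontal axis, 1 array each). The members (black) are at -0.27 in classical and -1.30 in nonclassical monocytes, between the replication fork genes (-2.35) and mismatch repair (-0.89), while mitosis genes are at -4.38 and all named genes (dashed) at 0.01.

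Promoter sequences were set beside these values because many members were lower on the same array. RefSeq start sites on GRCm38.p6 were found for 30 of the 37 members, and each window holds 250 bases before and 50 after the start. Among the 7 members without a window, Exo1, Fancd2, H2ax and Rad54b were lower in nonclassical than in classical monocytes. The lower members with a window are thus 12 of 16. Exact matches to the E2F element, the site of the factors that drive genes of S phase, were searched on both strands in 4 spellings, TTTGGCGC, TTTGCCGC, TTTCGCGC and TTTCCCGC. A match was present for 7 of 30 members, against 2.60% of all genes with a window. They were 4 of the 12 members lower in nonclassical monocytes, namely Bard1, Brca2, Chek2 and Clspn, and 3 of the 18 others, namely Fancg, Rad51c and Topbp1. The CCAAT box, searched as CCAAT on both strands, was present for 7 of the 12 lower members and 11 of the 18 others, against 41.1% of all genes. The cell cycle homology region TTTGAA, also searched on both strands, was present for 2 of 12 and 1 of 18, against 20.2%. In these windows no match of 1 motif overlapped a match of another. A match is a description of letters and not a measured binding site. Stretches of 100 bases upstream of the start are shown for the members whose E2F match lies wholly before it, and for Brip1, which has 3 CCAAT boxes and the widest difference among the members with a window. They read 5′ to 3′ along the gene's strand, which is minus for Bard1, Fancg and Brip1 and plus for the others, with the E2F match in capitals, or for Brip1 the reverse complement of CCAAT.
Bard1, chr1:71103123-71103222: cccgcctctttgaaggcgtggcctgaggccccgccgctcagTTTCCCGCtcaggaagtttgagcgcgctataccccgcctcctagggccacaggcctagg
Brca2, chr5:150522407-150522506: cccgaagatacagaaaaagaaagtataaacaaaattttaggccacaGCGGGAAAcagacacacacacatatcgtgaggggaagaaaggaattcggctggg
Chek2, chr5:110839785-110839884: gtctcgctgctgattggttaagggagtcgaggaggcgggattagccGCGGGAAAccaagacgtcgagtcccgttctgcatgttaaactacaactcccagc
Topbp1, chr9:103305152-103305251: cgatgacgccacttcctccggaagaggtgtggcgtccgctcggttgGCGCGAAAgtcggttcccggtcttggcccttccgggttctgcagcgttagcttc
Fancg, chr4:43010302-43010401: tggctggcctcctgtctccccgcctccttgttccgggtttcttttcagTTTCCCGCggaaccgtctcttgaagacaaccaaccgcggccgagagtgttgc
Brip1, chr11:86201204-86201303: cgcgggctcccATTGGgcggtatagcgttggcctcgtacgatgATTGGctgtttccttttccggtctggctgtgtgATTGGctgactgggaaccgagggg

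Bard1, Brca2 and Chek2 were lower in nonclassical monocytes by the threshold, Topbp1 lay just inside it and Fancg was nearly flat (-0.06), so an E2F spelling stood before genes of both kinds. Counting the base before the start as -1, the matches began at -209 in Bard1, -168 in Brca2, -152 in Chek2, -129 in Topbp1 and -52 in Fancg. The Brip1 boxes began at -99, -67 and -34.

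Small differences have a further limit in this table. In 13 of the 37 members at least 2 arrays held the same value to the last digit, as in 33.9% of all named genes past the floor. They include Rad52, Fanca, Fancg, Fancl, Fanci, Eme1, Slx4 and Mus81. How these ties arose is not stated, and flat values of such members may have lost small differences.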

How the data were processed

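The authors deposited 35556 probe set values per array for 5 arrays. That they are log2 values was read from the deposited range (1.59 to 14.24); how the authors corrected, normalized and summarised them is not stated in the labels. Per the labels' protocols, the RNAqueous-Micro kit gave the RNA and the Nugen Encore Biotin kit labelled it. The platform annotation gives 1 symbol to 21789 probe sets, several to 1621 and none to 12146; only the first kind was used, with the probe set of highest mean for each gene. Older symbols were matched through RefSeq (GRCm38.p6). Differences were computed in Python 3.11.15 with pandas 2.3.3 and called at 1 log2 unit with the floor of 6.27. The calling code was tested on simulated data. No test across samples was made. Alternatives were centring, quantile normalization, other floors, a 1.5-fold threshold and averaging a gene's probe sets. Members, lists and comparisons were chosen with earlier results of these data known. Members past the threshold, and those within 0.2 log2 units of it, were named. From each list of other repair genes, the 3 widest gaps between progenitor and monocyte arrays in each direction could be named; Neil3, Pmaip1, Plk2 and Phlda3 were named after their values were seen. The comparisons of both monocytes with MDP and the counts of array order were added after the values were seen.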

Additional observations from a re-analysis of the deposited data

How the results depend on the processing

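Between nonclassical and classical monocytes 16 members were lower, and 0 were higher under any setting. Centring and quantile normalization gave 18 each, against 10.3% and 8.22% of all genes lower. Centring added Fancb and Fancm, and quantile normalization added these and Rad51b and lost Bard1. The count was 16 with no floor (against 5.29% of all genes lower) and 21 with a 1.5-fold threshold (against 21.7%). It was 15 with a gene's probe sets averaged (against 9.66%). With the floor at the upper quartile 12 members were past it and 6 were lower, since that setting keeps fewer genes. The median difference ranged from -0.95 to -1.0. A 1.5-fold threshold gave 4 members for CDP against MDP, 3 for cMoP against MDP, 3 for cMoP against CDP, 5 for classical monocytes against cMoP and 2 for progenitors against monocytes, where the threshold of 1 log2 unit gave 0, 0, 0, 1 and 0. Of all genes, a 1.5-fold threshold called 10.2%, 11.0%, 18.8%, 26.1% and 7.66% in these comparisons, in either direction. With both directions pooled, the members' shares lay near or under these. By direction, all 3 members for cMoP against MDP were lower, against 5.51% of all genes. All 5 for classical monocytes against cMoP were lower, against 12.3%. The 2 members for progenitors against monocytes were both higher in progenitors, against 309 of 11058 genes. The other settings left those counts as they were. No paired analysis was possible because each population has 1 array. Having 1 array per population limits every value, and no replicate could be left out.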

Other observations

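Targets of p53, the transcription factor that acts downstream of ATM and CHEK2, were read from a separate list with 14 measured genes. Of these, 9 reached the floor in classical and 13 in nonclassical monocytes, so some passed it only through their nonclassical value. Of the 13 past the floor, 4 were higher and 2 lower in nonclassical than in classical monocytes, against 3.55% and 9.82% of all genes. The median difference was 0.26 over these 13 and 0.19 over all 14 measured. The 4 higher ones included Pmaip1, a BH3-only death gene, at 9.07 against 6.99, and Btg2, an antiproliferative gene, at 11.60 against 10.34. The others were Plk2 at 7.27 against 5.20 and Phlda3 at 7.26 against 5.84, with both classical values under the floor of 6.27. With the floor in their place, Plk2 was at the threshold and Phlda3 just inside it. Btg2 and Trp53inp1 were also higher in both monocyte arrays than in every progenitor array, by gaps of 1.14 and 1.21. The lower ones were Gtse1 (8.07 in classical and 6.66 in nonclassical monocytes), which is itself a gene of dividing cells, and Rps27l (10.68 and 9.61). Cdkn1a and Bax were not analysed here.

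Polm and Polb, of neighbouring repair pathways, were higher in both monocyte arrays than in every progenitor array, against the direction of the members. Their gaps were 0.74 and 0.72, each the widest of its list and inside the threshold of 1 log2 unit. Of all genes past the floor, 2.38% passed that threshold in this direction. Polm, a polymerase of end joining, had values of 5.55 in MDP, 6.03 in CDP, 6.25 in cMoP, 6.99 in classical and 7.20 in nonclassical monocytes, so that its progenitor values lay under the floor. Polb, the main polymerase of base excision repair, was higher in classical monocytes than in cMoP by 1.15 and differed by -0.05 between the monocytes.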
